A study of Homo sapiens with 3 samples.

Results

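Coenzyme A (CoA) carries the acyl groups of fatty acid synthesis, fatty acid oxidation and the TCA cycle, and every human cell builds it from pantothenate, vitamin B5. Pantothenate kinases phosphorylate the vitamin, PPCS joins the product to cysteine, PPCDC removes a carboxyl group to give 4′-phosphopantetheine, and COASY adds the nucleotide part and completes the molecule. The kinase step is shared by PANK1, PANK2 and PANK3 and is held back by CoA and its thioesters, whereas the later steps rest on PPCS, PPCDC and COASY. DCAKD resembles the dephospho-CoA kinase domain of COASY. PANK4 belongs to the same family by sequence but lacks pantothenate kinase activity and carries a phosphatase domain. The genes examined here were the guides' targets whose symbol starts with PANK or is PPCS, PPCDC, COASY or DCAKD. The library listed 7 of these 8 symbols among its 2978 genes, with 10 guides each, and DCAKD was not analysed here.

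The guides came from a pooled knockout screen of metabolic genes in MIA PaCa-2, a cell line grown from a human pancreatic ductal adenocarcinoma. Transduced and puromycin-selected cells were sampled without treatment at day 0 (the initial population), after 14 days with DMSO, or after 14 days with apilimod, which inhibits the lipid kinase PIKfyve. All cells of the 3 pools carried library virus, and each pool gave 1 library, so no difference below has a replicate check and each test compares libraries rather than conditions. The label gives 200 nM of apilimod and the methods of the study another concentration, so the dose is unsettled. The libraries held 24695476 counts (initial), 26276517 (DMSO) and 25599416 (apilimod). Guides against intergenic sequence, which cut the genome outside genes, served as controls, and 487 of 499 reached the minimum of 100 initial counts.

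In hg38 the genes lie on 6 chromosomes. PANK1 spans positions 89579497 to 89645242 of chromosome 10, PANK2 3888839 to 3929887 of chromosome 20 and PANK3 168548495 to 168579368 of chromosome 5. PANK4 spans 2508537 to 2526597 of chromosome 1 and PPCS 42456117 to 42473385 of the same chromosome. PPCDC spans 75023586 to 75117462 of chromosome 15 and COASY 42561467 to 42566277 of chromosome 17. The canonical transcripts of PANK1, PANK2 and PANK3 have 7 exons each, PANK4 has 19, COASY 9, PPCDC 6 and PPCS 3. MIR107 lies within PANK1, MIR103A2 within PANK2 and MIR103A1 within PANK3. The span of PPCS overlaps the protein-coding genes ZMYND12 and CCDC30, and that of PANK2 overlaps RNF24. The files name the guides by gene and number without their sequence, so the exon each guide cuts, and whether a guide against one PANK gene also matches a relative, were not tested.

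Of the 70 guides, 67 passed the minimum, and all 7 genes kept at least 9 guides. Guide 9 of PANK2, guide 1 of PANK3 and guide 7 of PPCS had 76, 52 and 59 initial counts and were left out. A log2 change is that of a guide's share of its library against the initial population, and a gene score is its mean over the guides of the gene, with the SD over guides. Where a score is given as a part of the initial share, this is the geometric mean over guides, not the change of the summed counts. The median change of the control guides was 0.14 on this scale in DMSO and 0.22 in apilimod. Their central 95% ran from -0.78 to 0.85 in DMSO and from -0.85 to 2.41 in apilimod, so the control range reached further up in the apilimod library. The counting error of the log2 change of a single guide, as an SE, was at most 0.43 and had a median of 0.07 in either arm over the 67 guides. It covers counting only, since PCR copies are not independent cells.

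After 14 days in DMSO, guides against the enzymes downstream of the kinase step were depleted, whereas 3 of the 4 PANK genes were not called. PPCDC and COASY lost the most, with gene scores of -2.40 and -1.92, PPCS followed at -0.76, and PANK3 stood at -0.32. Of the 7 genes, these 4 passed as lower than controls (exact two-sided rank-sum test of guides at 0.05, with p-values adjusted over 2969 genes by the Benjamini-Hochberg method here and throughout), and 18.9% of all genes were called lower. None of the 7 was higher, against 0.842% of all genes. A score at least 1 below the control median was reached by PPCDC and COASY and by 6.53% of all genes. The median score of the 7 genes was -0.32 and that of all genes -0.03.

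**Figure D1:**
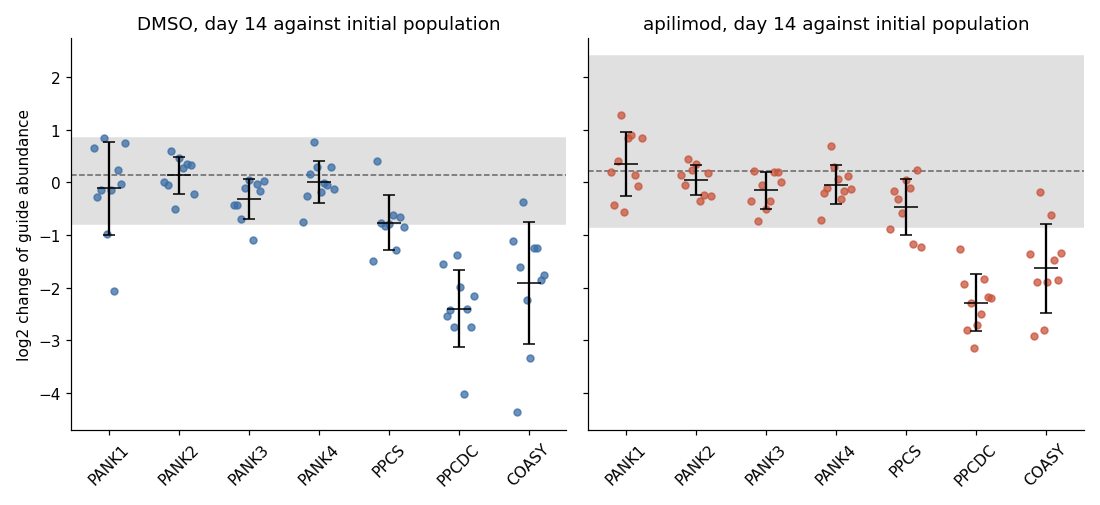
Log2 change of each guide (y axis) for the 7 coenzyme A synthesis genes (x axis) after 14 days in DMSO (left) and in apilimod (right). Each point is 1 guide, black bars are the mean and SD over guides, the dashed line is the median and the grey band the central 95% of 487 control guides. All 10 guides of PPCDC lie below the band in either arm, and the guides of PANK2 and PANK4 lie inside it.

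PPCDC, the decarboxylase, summed over its 10 guides to 12145 counts at day 0, 2514 in DMSO and 2728 in apilimod. Its score in DMSO was -2.40 ± 0.74 (SD, n = 10 guides), which corresponds to 0.190 of the initial share. Every guide lay below the central 95% of the controls, from guide 7 at -4.02 (1605 counts at day 0 and 104 in DMSO) to guide 5 at -1.39 (980 and 398 counts). The gene ranked 23 from the lowest of 2969 genes, with a shift against the control guides of -2.50 (exact 95% interval -2.80 to -2.18) and an adjusted p of 5.13e-17 (exact rank-sum test).

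COASY, the bifunctional CoA synthase, had summed counts of 10049, 4296 and 4288 in the initial, DMSO and apilimod libraries. Its DMSO score was -1.92 ± 1.16 (SD, n = 10 guides), or 0.265 of the initial share as a mean over guides, and it ranked 53 from the lowest. The summed counts stood at 0.402 of their initial share in DMSO. The lowest guides, 2 and 6, were among those with the fewest initial counts. Guide 2 went from 232 counts to 11 in DMSO, a log2 change of -4.37, and guide 6 from 132 to 13, a change of -3.34. At the other end guide 4, with 1518 and 1243 counts, was at -0.38, the sole COASY guide inside the central 95% of the controls. The shift against the control guides was -1.82 (exact 95% interval -2.24 to -1.44), with an adjusted p of 1.95e-13 (exact rank-sum test). With guides of at least 300 initial counts, which leaves guides 2 and 6 out, the score was -1.43.

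PPCS, the ligase that precedes PPCDC in the pathway, was depleted less. Its summed counts were 8130 at day 0, 5798 in DMSO and 5840 in apilimod, and its DMSO score was -0.76 ± 0.53 (SD, n = 9 guides), 0.589 of the initial share. Of its 9 guides, 8 lay below the control median and 4 below the central 95% of the controls. Guide 1 was lowest, at -1.50 (310 and 116 counts), and guide 2 rose by 0.40 (1712 and 2407 counts). The shift was -0.95 (exact 95% interval -1.22 to -0.69), with an adjusted p of 6.80e-05 (exact rank-sum test), and the gene ranked 229 from the lowest.

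Among the kinases, PANK3 alone passed the test. Its summed counts were 15547 at day 0, 12861 in DMSO and 13984 in apilimod. The DMSO score was -0.32 ± 0.38 (SD, n = 9 guides), or 0.802 of the initial share, and all 9 guides lay below the control median. Guide 7 was lowest, at -1.09 (1737 and 867 counts), and was the only PANK3 guide below the central 95% of the controls. The shift was -0.42 (exact 95% interval -0.69 to -0.18), with an adjusted p of 0.00594 (exact rank-sum test). PANK3 ranked 619 of 2969, and with guides of all other genes in place of the controls it was not called (exact rank-sum test, adjusted p = 0.361). By that reference PPCDC, COASY and PPCS were lower, as were 7.48% of all genes.

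PANK1, PANK2 and PANK4 were not called in DMSO, with scores of -0.11 ± 0.88 (SD, n = 10 guides), 0.14 ± 0.35 (SD, n = 9 guides) and 0.01 ± 0.40 (SD, n = 10 guides). The exact 95% intervals of their shift against the control guides were -0.49 to 0.23, -0.25 to 0.26 and -0.37 to 0.10. These lay above the shifts of PPCS, PPCDC and COASY, but they cover only the spread between guides within 1 library. PANK1 had summed counts of 11667 at day 0, 12803 in DMSO and 14391 in apilimod. The large SD of PANK1 came with guides far apart. Guide 7 fell by 2.07 (200 to 50 counts) and guide 5 by 0.97 (1020 to 552), while guide 4 rose by 0.84 (160 to 305) and guide 10 by 0.75 (489 to 878). PANK2, the kinase whose mutation causes a neurodegeneration with brain iron, had summed counts of 10512, 13294 and 10989 in the initial, DMSO and apilimod libraries, with guides from -0.50 to 0.59. PANK4 had summed counts of 11468, 12731 and 11733, with guides from -0.75 to 0.76.

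In order from the lowest score in DMSO, the genes were PPCDC, COASY, PPCS, PANK3, PANK1, PANK4 and PANK2. The guide ranges of every neighbouring pair in this order overlapped. COASY and PPCS were furthest apart of the neighbours, by 1.15, with 6 of 10 COASY guides below every PPCS guide. PPCDC and COASY differed by 0.48, less than the SD over guides of either gene, and the last 3 genes in the order were each within 0.13 of their neighbour. Over the 67 guides, 38.8% lay below the central 95% of the controls, beside 13.5% of all 28042 gene-targeting guides. These were 10 guides of PPCDC, 9 of COASY, 4 of PPCS, 2 of PANK1 and 1 of PANK3.

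After 14 days in apilimod the same 4 genes were lower than the control guides, where 29% of all genes were called lower. None of the 7 was higher, beside 0.236% of all genes. PPCDC scored -2.29 ± 0.54 (SD, n = 10 guides) and COASY -1.63 ± 0.85 (SD, n = 10 guides), which correspond to 0.205 and 0.322 of the initial share. These scores lay at least 1 below the control median, as did those of 9.77% of all genes. PPCS scored -0.46 ± 0.53 (SD, n = 9 guides) and PANK3 -0.15 ± 0.35 (SD, n = 9 guides). The adjusted p-values were 1.90e-14 for PPCDC, 3.97e-10 for COASY, 0.00172 for PPCS and 0.0422 for PANK3 (exact rank-sum test). The ranks from the lowest were 38, 95, 526 and 1136.

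Every PPCDC guide again lay below the central 95% of the controls, from -3.14 for guide 5 (114 counts) to -1.27 for guide 1 (240 counts). Of the COASY guides 8 of 10 did, and guides 4 and 7 stood at -0.18 and -0.63. For PPCS 3 of 9 guides lay below this range and 8 below the control median, and guides 5 and 9 had log2 changes of 0.04 and 0.23. No guide of a PANK gene lay below it. In all, 31.3% of the 67 guides did, beside 14.5% of all gene-targeting guides.

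The scores of PANK1, PANK2 and PANK4 in apilimod were 0.36 ± 0.61 (SD, n = 10 guides), 0.05 ± 0.29 (SD, n = 9 guides) and -0.04 ± 0.37 (SD, n = 10 guides), and none was called. The call of PANK3 ended with guides of at least 300 initial counts (exact rank-sum test, adjusted p = 0.0525), with controls of at least 200 (0.0514), without the guide farthest from its gene's median (0.0898), and against the guides of all other genes (0.803). Against that last reference PPCS was not called either (exact rank-sum test, adjusted p = 0.282), while PPCDC and COASY were, as were 7.58% of all genes.

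**Figure D2:**
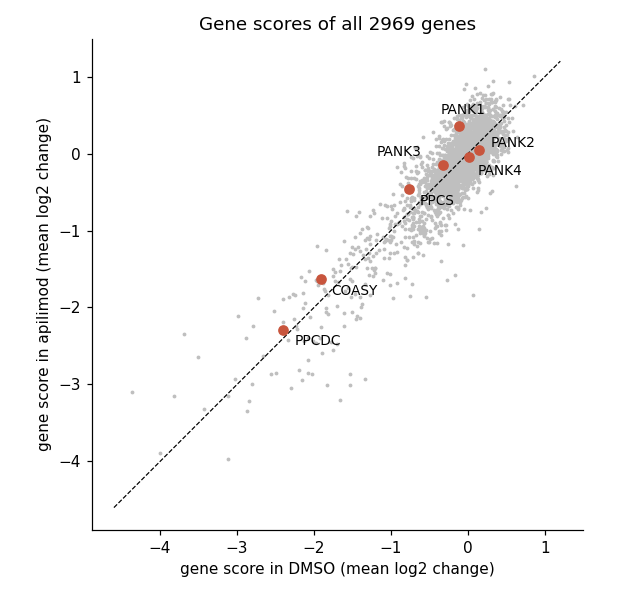
Gene score in DMSO (x axis, mean log2 change) against that in apilimod (y axis, same unit) for 2969 genes (grey) with the 7 coenzyme A synthesis genes in red, and a dashed line where the scores are equal. PPCDC (-2.40 and -2.29) and COASY (-1.92 and -1.63) stand in the sparse lower part, and the PANK genes within the dense cloud near 0.

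Control guides of under 1000 initial counts stood at different levels in the 2 arms, which touches the apilimod calls and the comparison of the arms. The 20 controls kept with under 200 initial counts stood at a median of -0.06 in DMSO but 1.91 in apilimod, and the 2209 gene-targeting guides of like abundance at -0.02 and 0.20. The controls also stood higher in apilimod at 200 to 500 initial counts (median 0.17 in DMSO and 0.52 in apilimod, n = 70 guides) and at 500 to 1000 (0.10 and 0.41, n = 115 guides), where the medians of gene-targeting guides in apilimod were 0.03 and -0.04. With at least 1000 initial counts the control medians were 0.16 and 0.13 (n = 282 guides). Several low-count guides of the CoA genes also stood higher in apilimod than in DMSO. Guide 7 of PANK1 had 200, 50 and 389 counts in the initial, DMSO and apilimod libraries. Guide 9 of PANK2, left out by the minimum, had 76, 35 and 303, and guide 7 of PPCS, also left out, 59, 36 and 130. Guide 1 of PANK3, with the lowest initial count of all 70, went the same way in the 2 arms, with 52, 39 and 37 counts. The part of initial abundance in the results was not tested beyond the minimum counts and the trend named in the closing section.

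**Figure D3:**
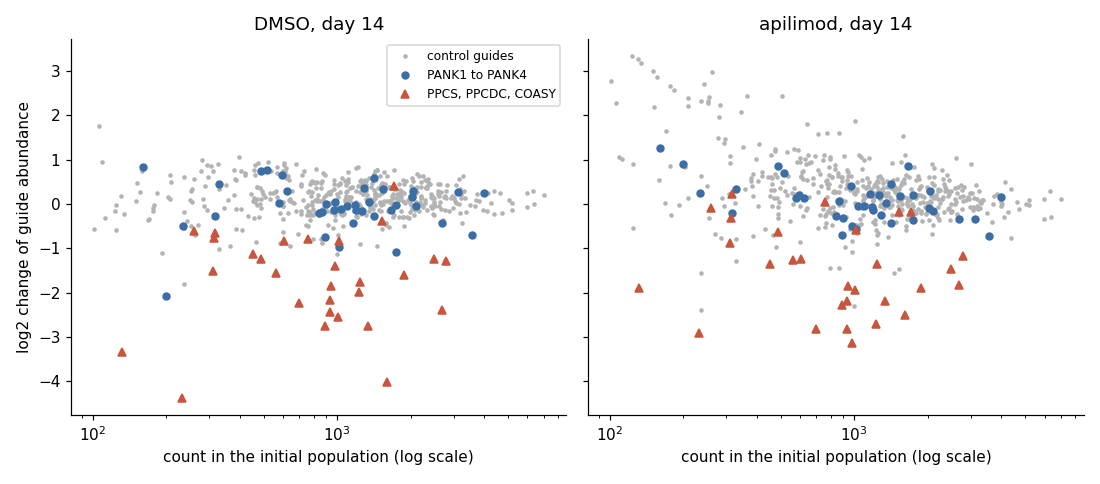
Log2 change (y axis) against the count in the initial population (x axis, log scale) in DMSO (left) and apilimod (right). Grey points are 487 control guides, blue circles the guides of the 4 PANK genes and red triangles those of PPCS, PPCDC and COASY. Below 200 initial counts the control guides spread upwards in apilimod, with a median of 1.91, and every PPCDC and COASY guide lies below the control median.

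The direct comparison of apilimod with DMSO asked whether loss of a CoA synthesis gene cost more or less when PIKfyve was inhibited. None of the 7 genes was called lower or higher (exact rank-sum test of scaled guide differences), where 0.64% of all genes were called lower and 0.0674% higher, and the lowest unadjusted p was 0.0923, for PPCS. In this test each arm was scaled to a control median of 0 and a median of -1 over 26 nucleotide synthesis genes, and the z score is the scaled difference, apilimod minus DMSO, in SDs over all genes. The z scores were 1.69 for PANK1, 1.61 for COASY, 1.30 for PPCS, 1.16 for PPCDC, 0.69 for PANK3, -0.20 for PANK4 and -0.37 for PANK2. Their median was 1.16, the value of PPCDC, beside -0.01 over all genes. The lowest adjusted p was 0.556, for PPCS, and the highest 0.893, for PANK4 (exact rank-sum test). The unit of this scale was larger in apilimod than in DMSO, so a gene depleted alike in both arms has a positive difference. Without that reference, and with control medians still at 0, differences were 0.39 for PANK1, 0.22 for PPCS and 0.20 for COASY. They were 0.09 for PANK3, 0.03 for PPCDC, -0.14 for PANK4 and -0.17 for PANK2, and none was called (exact rank-sum test). With a minimum of 300 initial counts, the scaled difference went from 0.20 to 0.02 for COASY and from 0.21 to 0.06 for PANK1. At this minimum it was 0.11 for PPCDC, 0.14 for PPCS, 0.07 for PANK3, -0.05 for PANK4 and -0.13 for PANK2.

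The exact 95% intervals bound what these guides could show. On the scaled difference, where 1 is the distance from the control median to the median nucleotide synthesis gene, the shift against the control guides ran from -0.09 to 0.40 for PPCDC, from -0.05 to 0.33 for COASY and from -0.04 to 0.37 for PPCS. For PANK1 it ran from -0.06 to 0.30, for PANK2 from -0.24 to 0.06, for PANK3 from -0.08 to 0.23 and for PANK4 from -0.15 to 0.08. With N-glycosylation genes as the -1 reference, COASY was called higher (scaled difference 1.02, exact rank-sum test, adjusted p = 0.0482), and over 14 alternatives of this exact test the adjusted p lay between 0.0482 and 0.980. The N-glycosylation genes had median scores of -0.55 in DMSO and -0.73 in apilimod, beside -1.68 and -1.77 for the nucleotide synthesis genes. The unit is therefore smaller there, and it is again larger in apilimod than in DMSO. For both reasons 1.02 cannot be set beside the intervals above or read as a gain of that size. PPCDC stood at 1.03 on that scale and was not called, while its difference without a reference was 0.03. For COASY the difference without a reference was 0.20, and it was not called (exact rank-sum test, adjusted p = 0.892).

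Before scaling, the mean log2 ratio of apilimod to DMSO was 0.11 ± 0.90 for PPCDC, 0.28 ± 0.71 for COASY and 0.47 ± 0.97 for PANK1 (SD, n = 10 guides each). It was 0.30 ± 0.51 for PPCS, 0.17 ± 0.38 for PANK3 and -0.09 ± 0.40 for PANK2 (SD, n = 9 guides each), and -0.06 ± 0.16 for PANK4 (SD, n = 10 guides). The spread within PPCDC was wide in both directions. Guide 7 had 104 counts in DMSO and 292 in apilimod, a log2 ratio of 1.52, and guide 5 had 398 and 114, a ratio of -1.76. Guides 2 and 6 of COASY had ratios of 1.45 and 1.44, from 11 and 13 counts in DMSO, and the other 8 lay between -0.58 and 0.62. The PANK1 mean was drawn up by guide 7, at 2.97.

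**Figure D4:**
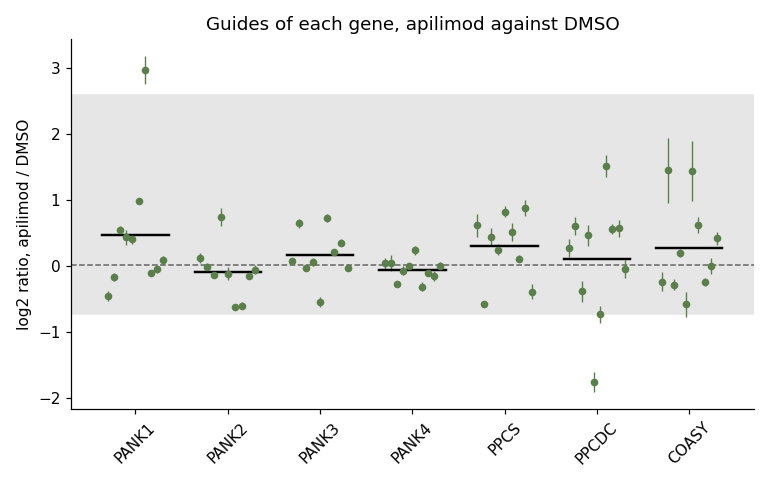
Log2 ratio of apilimod to DMSO (y axis) for each guide of the 7 genes (x axis), with bars of 1 counting SE, black lines at the gene's mean, a dashed line at the median of the controls and their central 95% in grey. The guides of PANK4 lie within 0.31 of 0, and guide 7 of PANK1, at 2.97, and guide 5 of PPCDC, at -1.76, stand outside the grey band. Guide 6 of PPCDC, at -0.730, lies just below its lower edge of -0.728.

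Other steps of CoA metabolism were covered by 4 lists, of which 13 genes were measured and tested. For comparison, 18.9% of all genes were called lower in DMSO and 29% in apilimod. The pantetheinases VNN1, VNN2 and VNN3, which release pantothenate, were not analysed here. SLC5A6, the sodium-dependent transporter that imports pantothenate and biotin, was not called, with scores of 0.17 ± 0.47 in DMSO and -0.16 ± 0.65 in apilimod (SD, n = 8 guides). Of 3 carriers, SLC25A42, which brings CoA into mitochondria, was lower in DMSO at -0.42 ± 0.78 (SD, n = 10 guides, exact rank-sum test, adjusted p = 0.0445) and was not called in apilimod at -0.35. SLC25A16 had the highest carrier score in DMSO, 0.09, and SLC25A17, a carrier of peroxisomes, the highest in apilimod, 0.28. None of 3 CoA hydrolases was called in any comparison. In DMSO they ran from -0.06 for NUDT7 to 0.15 for NUDT8, and in apilimod from -0.11 for NUDT19 to 0.27 for NUDT7.

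The genes that pass on the 4′-phosphopantetheine arm of CoA, and those that accept it, were measured as well. Of 6 on this list, 2 were lower in DMSO and 3 in apilimod, beside 18.9% and 29% of all genes. AASDHPPT, the transferase that attaches this arm to carrier proteins, was lower in DMSO at -1.31 ± 1.16 and in apilimod at -1.09 ± 1.03 (SD, n = 10 guides), with adjusted p-values of 2.89e-05 and 4.15e-05 (exact rank-sum test). Its acceptor NDUFAB1, the mitochondrial acyl carrier protein, was lower at -1.52 ± 0.88 and -1.87 ± 1.06 (SD, n = 10 guides), with all guides below the control median. FASN, the cytosolic fatty acid synthase and another acceptor, scored 0.07 in DMSO and -1.83 in apilimod, and it was the only gene of the 4 lists called between the arms (z = -6.71, exact rank-sum test, adjusted p = 5.03e-07). AASDHPPT itself had a z of 1.19 and NDUFAB1 of -0.70, and neither was called. ALDH1L1, ALDH1L2 and AASDH were not called in any comparison. ALDH1L2 had the highest apilimod score of this list, 0.28.

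For PPCDC, the lowest of the 7 in DMSO, the genes nearest by this pair of scores, outside these lists and both lists of reference genes used for scaling, were ABCF1, MYC and UROD. Their distances over the 2 scores were 0.10, 0.14 and 0.17 on the log2 scale, with DMSO scores of -2.41, -2.34 and -2.23 and apilimod scores of -2.19, -2.42 and -2.28. This likeness rests on 2 comparisons that share the initial library.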

How the data were processed

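The authors deposited raw counts of reads for each guide. They isolated guide sequences with cutadapt 4.1, matched them with Bowtie2 2.4.5 to a reference of library guides and counted with MAGeCK 0.5.9.5, per the methods and the submitters' processing notes. The series table and the 3 library files differed in 0 values.

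From these counts, following the study's methods, guides with under 100 initial counts (1630 of 30197) and genes with under 6 guides were removed. A pseudocount of 1 was added, counts were divided by library totals, and log2 changes were averaged over guides. The gene test was an exact two-sided rank-sum test against 487 intergenic guides with Benjamini-Hochberg adjustment over 2969 genes (Python 3.11.15, numpy 2.4.6, scipy 1.17.1). Its recovery of changes put into simulated counts was checked, without the scaling to reference genes. Background changes there were drawn from control guides whatever their initial count. The -1 reference was a nucleotide synthesis list. It replaced the core essential genes that the study's methods name. With 1 library per group, no count model was fitted.

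The named genes were all 7 CoA synthesis genes, the called, lowest and highest genes of 4 related lists, and the 3 genes nearest to PPCDC outside all lists, those used for scaling included. The genes and lists were chosen with earlier results of these data known. Gene positions are from GENCODE on hg38, a build that the processing notes also name.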

Additional observations from a re-analysis of the deposited data

How the results depend on the processing

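The calls of PPCDC and COASY against the initial population held in all 11 alternatives tried in each arm. Among these, the series table holds the same counts and the median over guides leaves the rank-sum test unchanged, so neither could alter a call. PPCDC scored from -2.51 to -2.37 in DMSO and from -2.29 to -2.19 in apilimod, COASY from -1.92 to -1.43 and from -1.67 to -1.44. The number of genes called lower in apilimod, 4, became 2 with guides of all other genes as the null. With N-glycosylation genes as the reference, the number called between the arms went from 0 to 1. Scores of PANK genes changed side of the reference median without a call. These were, in apilimod, PANK2 at 0.24 with a minimum of 30 or none, PANK1 at 0.17 with a minimum of 300 and PANK2 at 0.0501 with guides of other genes as the null. In DMSO they were PANK2 at 0.22 (minimum of 300), 0.14 (guides of other genes), 0.18 (without the farthest guide), 0.27 (median over guides) and 0.13 (abundance trend removed), and PANK4 at 0.0113 (guides of other genes). Between the arms, the scaled difference of PANK2 went from -0.0863 to 0.0696 with a minimum of 30 and to 0.0661 with none. PANK4 was called lower in apilimod without the farthest guide, at -0.13. The cause was not tested. The trend removal was chosen after the data were seen, and its GC part was not run because guide sequences were not used here. A pseudocount of 5, a minimum of 1 guide per gene and the series table changed no call of the 7 genes. The share of CoA guides below the control range lay between 35.7% and 39.3% in DMSO and between 28.6% and 31.3% in apilimod with minimums of 30 (70 guides) or 300 (61 guides) or controls of at least 200 initial counts. No paired analysis was possible because each group has 1 library. Counting error was largest for guides with few counts, such as guides 2 and 6 of COASY (SE of 0.43 and 0.41 in DMSO).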
